A study of Mus musculus with 8 samples.

Results

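The genes described here are 53 ciliary transport and nephronophthisis genes, chosen by name for the role of their products, and all 53 were among the 24063 gene symbols in the count tables. They comprise 11 genes of the intraflagellar transport complex B (IFT-B), 6 of complex A (IFT-A) and 5 listed as motors. Of these 5, Tctex1d1 is listed as a member of a dynein light chain family. Another 10 serve the BBSome with its recruitment and assembly, and 5 serve cargo release and delivery. The rest are 6 of the nephronophthisis and inversin modules and 10 of the Meckel-Gruber and tectonic module. RNA was sequenced from tubuloids, spheroids and tubules that form between layers of Matrigel from digested mouse kidneys, in cultures that also hold undifferentiated structures negative for E-cadherin; the age of the kidneys is given in the sample descriptions as day 7 to day 10 after birth, and the study's methods give a somewhat younger range. All cultures, controls included, carried Pkd2fl/fl, Pax8rtTA, TetOCre and mTmG: both alleles of Pkd2, which encodes polycystin-2, are floxed, a Cre recombinase is induced by doxycycline through a transactivator under the Pax8 promoter, and a membrane reporter marks cells in which Cre has acted. From day 3 of culture, 4 cultures received doxycycline (libraries DOX 9, DOX 21, DOX 19 and DOX 12) and 4 received the vehicle dimethyl sulfoxide (DMSO 15, DMSO 20, DMSO 3 and DMSO 5) for 3 days, and RNA was taken on day 7. The Pax8 promoter limits recombination to epithelial cells, and not every such cell recombines, so the DOX libraries hold RNA of recombined and unrecombined cells together. The descriptions do not say whether each culture of a group came from a separate animal. By Xist and Y-linked reads each group held 1 male library beside female ones, so each drew on more than 1 animal. The p-values below measure only the spread between these libraries.

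The primary cilium is a microtubule-based projection that most tubule cells carry on the luminal side, where it holds polycystin-2 among other membrane proteins. IFT-B and kinesin-2 carry cargo from the base to the tip, IFT-A and cytoplasmic dynein-2 carry it back, the BBSome brings membrane proteins out, and a pair of small GTPases with their regulators releases lipid-modified cargo inside the cilium. At the base, the transition zone, built from nephronophthisis, Meckel-Gruber and tectonic proteins, acts as a gate. Inherited defects in these genes cause cystic kidney diseases such as nephronophthisis, Bardet-Biedl syndrome, Joubert syndrome and Meckel-Gruber syndrome.

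Many genes of cilia carry near their start a binding motif of RFX transcription factors, the X-box, whose letters centre on an inverted repeat of the core GTTGCC. RefSeq promoter windows of 300 bases, from 250 bases before to 50 bases after a transcript start (build GRCm38.p6), were found for 49 of the 53 genes, 54 windows in all. On either strand and with 0 to 3 bases between its arms, the X-box was present in 8 of the 54 windows (14.8%) and in 502 of all 32851 windows (1.53%). The core GTTGCC alone, which lies within most X-boxes, was present in 23 of the 54 windows (42.6%) and in 4111 of all windows (12.5%). The median GC content was 60.3% in the 54 windows and 52.7% in all windows. A match is a description of these letters and not evidence of binding. The 8 genes were Kif17, Tctn1, Tctn2, Tctn3, B9d2, Ahi1, Ift57, which held 2 matches, and Bbs1. Their sites are shown because they include Ahi1, one of the genes the comparison below turns on, and because they are the letters shared by the promoters of a motor, an IFT-B, a BBSome and 5 transition zone genes. Each is read 5′ to 3′ on the strand of its gene, with the X-box in capitals.
Kif17, chr4:138262170-138262198: tcacggagGTTGCCCAGCAACggcgaacg
Tctn1, chr5:122264411-122264432: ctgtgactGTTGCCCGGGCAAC
Tctn2, chr5:124598679-124598708: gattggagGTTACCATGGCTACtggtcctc
B9d2, chr7:25680788-25680817: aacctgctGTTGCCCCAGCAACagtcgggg
Ahi1, chr10:20952560-20952589: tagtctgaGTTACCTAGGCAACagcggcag
Ift57, chr16:49699199-49699228: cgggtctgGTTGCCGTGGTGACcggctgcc
Ift57, chr16:49699226-49699254: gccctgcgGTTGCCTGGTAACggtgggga
Bbs1, chr19:4906605-4906634: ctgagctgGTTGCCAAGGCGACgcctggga
Tctn3, chr19:40612351-40612379: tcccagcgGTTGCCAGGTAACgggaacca
The Kif17, Tctn2, Ift57 and Tctn3 sites lie before the transcript start of their window, whereas those of Tctn1, B9d2, Ahi1 and Bbs1 lie within 50 bases after it. Such a start need not be the first base of the gene: that of Ahi1 is 20952232, upstream of its window.

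The libraries held 63922677 to 102716313 summed transcript counts. DMSO 20 and DOX 19 stood apart, with counts for 13243 and 13599 genes against 17054 to 17903 in the other 6 libraries, so many of the values that rest on them are also given for 3 against 3 libraries. Each group held 1 male library (DMSO 15 and DOX 21). Kidney epithelial markers such as Cdh1 and Epcam were present in every library, with a mean log2(normalised count + 1) over 8 markers of 11.65 to 13.85. Stromal markers were also present, from 9.83 in DOX 19 to 14.56 in DMSO 15. Over 8 markers of collecting duct principal cells the mean ran from 2.40 in DMSO 20 to 9.40 in DMSO 5: Gata3 and Fxyd4 were read in all 8 libraries, whereas the water channel gene Aqp2 had reads in DOX 9 alone, and 6 of the 8 markers were at 0 in DMSO 20 and 5 in DOX 19. Markers of motile, multiciliated cells, which use the same transport genes, were low at 1.16 to 4.70 over 17 genes, and their regulator Foxj1 was at 0 in DMSO 20 and DOX 19. In such mixed cultures fewer cells of a type and less RNA per cell cannot be told apart. Pkd2 itself was read at 6039, 7538, 6128 and 4813 normalised counts in DMSO 15, 20, 3 and 5 and at 4136, 4624, 5952 and 5072 in DOX 9, 21, 19 and 12. These groups overlapped, and its log2 fold change of -0.31 ± 0.215 (SE) did not pass the test (DESeq2 adjusted p = 0.999). The counts cover the whole transcript, and the floxed part was not read separately, so they do not measure recombination. By western blot the study reported less polycystin-2 protein in tubuloids after doxycycline.

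The ciliary genes were expressed in all cultures. At least 1 read was counted in every library for 46 of the 53, and at least 10 reads for 45. Levels per transcript length, in TPM (counts scaled by transcript length and library), had a median of 6.46 over the 53 genes against 5.66 over the 19268 genes with a p-value, taking for each gene the transcript with the most reads. Reads shared by several transcripts of a gene were counted for each of them, so TPM and counts summed over transcripts overstate the level of the 16 genes with several; for the TPM of these the transcript with the most reads is given too. The counts below are summed for Rp2h, Ahi1, Tmem67, Tctn1, Ttc8, Kif3a, Kif17, Ift43, Ift122, Ttc21b, Wdr35 and Invs. The small IFT-B subunit Ift20 had the highest level of the genes with a single transcript (130 TPM on average, 81.2 to 158 over 8 libraries), followed by the small GTPase Arl3 (94.0 TPM, 72.1 to 117) and the transition zone gene B9d1 (53 TPM). Ift43, an IFT-A subunit, reached 179 TPM summed over 2 transcripts and 91.6 TPM in one of them. The ranges of Ift20 and Arl3 overlapped, but Ift20 was above Arl3 within each of the 8 libraries. At the other end were the kinesin Kif17 (0.398 TPM summed) and the dynein light chain family gene Tctex1d1 (0.420 TPM summed). In the transcript with the most reads they were at 0.181 and 0.145 TPM. Next came Dync2h1, the heavy chain of dynein-2 (1.61 TPM).

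**Figure D1:**
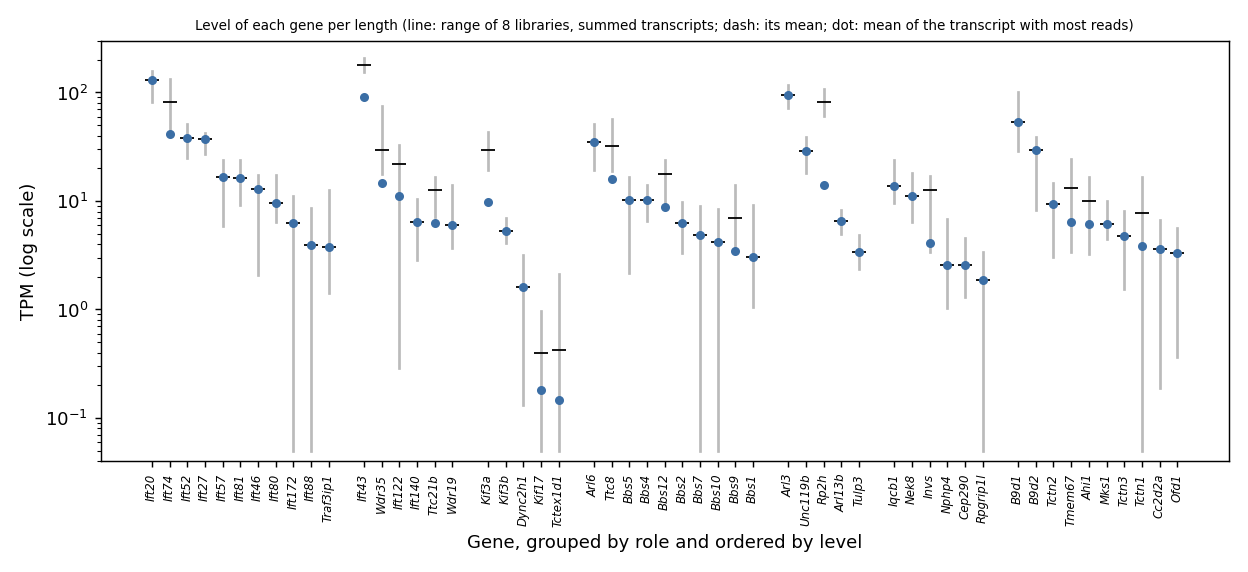
Mean level of each of the 53 genes in TPM on a log axis, grouped by role; grey lines span the lowest to the highest of 8 libraries (cut off at 0.05 TPM), dashes mark the mean summed over transcripts and dots the mean of the transcript with the most reads. Ift20 at 130 TPM is the highest dot and Tctex1d1 and Kif17 are the lowest.

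The comparison of DOX with DMSO asks whether the RNA of the ciliary machinery differed soon after doxycycline induced Cre against Pkd2. No culture received doxycycline without Cre or without floxed Pkd2. Effects of the drug, of Cre and of Pkd2 loss therefore cannot be told apart. By DESeq2, calling genes that changed at least 1.5-fold with an adjusted p no higher than 0.05, 2 of the 53 genes passed: Rp2h was lower and Tctex1d1 was higher. Over all genes 0.147% were called (25 of 17011), 0.0647% as lower and 0.0823% as higher. Both genes were already known to be called when the list was drawn up, so their presence in it is no independent evidence. By the quasi-likelihood test of edgeR no gene was called among the 52 of these genes it tested, nor among all 15562 (0% called), and the smallest adjusted p was 0.999. At an unadjusted p under 0.05 there were 3 genes by DESeq2 (4.67% of all genes): Tctex1d1 and Ahi1 were higher (2.2% of all genes) and Rp2h was lower (2.47%). There were 2 by edgeR (Rp2h and Ahi1; 3.06% of all genes). The fitted change was above 0 for 24 genes and below 0 for 29, with a median log2 fold change of -0.08, against -0.07 over all genes.

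The precision of these fold changes differed widely between genes. Standard errors ran from 0.12 to 2.10 on the log2 scale with a median of 0.42, against 0.59 over all genes. The median was 0.35 over 53 further subunits and partners of these complexes, described below. The 95% interval lay within a 2-fold change in either direction for 20 of the 53 genes, and this was the case for 31.0% of all genes. With DMSO 20 and DOX 19 left out it lay within 2-fold for 35 of the 53 (38.3% of all genes), and the median standard error was 0.32, against 0.46 over all genes. In that comparison of 3 against 3 libraries none of the 53 genes was called by DESeq2 (0.296% of all genes) and 5 had an unadjusted p under 0.05, namely Tctex1d1, Bbs5, Rp2h, Iqcb1 and Ahi1 (6.11% of all genes).

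**Figure D2:**
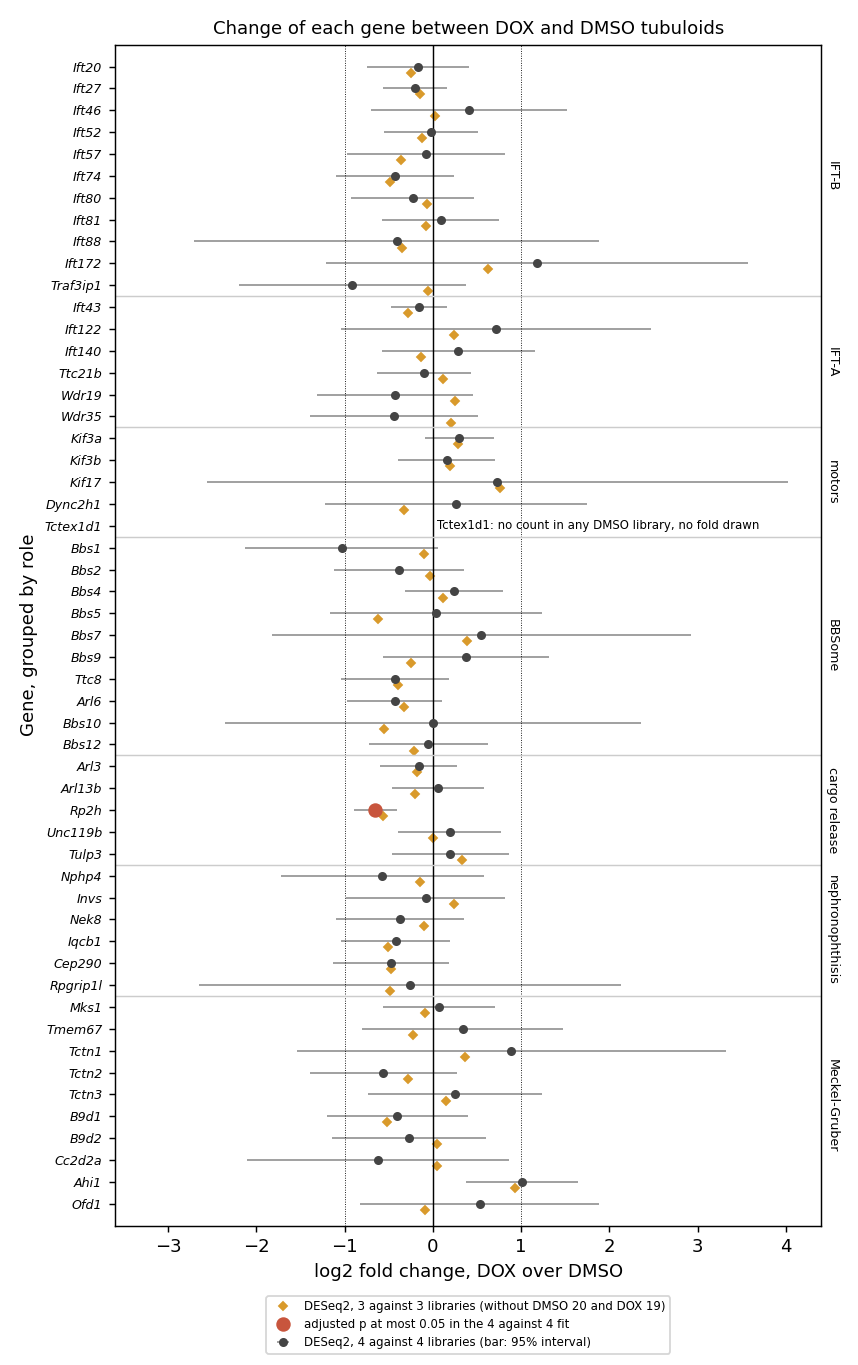
Log2 fold change of DOX over DMSO for each gene by DESeq2, grouped by role, with 95% intervals from 4 against 4 libraries (dark points) and the value without DMSO 20 and DOX 19 (diamonds); dotted lines mark a 2-fold change. Of the 2 called genes, Rp2h is marked at -0.65 with a short interval and Tctex1d1 is not drawn, since no DMSO library held a read of it; Ahi1 lies at 1.01, and the long intervals belong to genes at or near 0 reads in DMSO 20 or DOX 19.

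The genes for cargo release and delivery held the most precise of these changes. Arl3 and its activator Arl13b are small GTPases whose active form in the cilium unloads lipid-modified proteins from carriers such as Unc119b, and Rp2h, named Rp2 in current annotation and mutated in X-linked retinitis pigmentosa, encodes the protein that switches Arl3 off. Rp2h (chromosome X, 20364481 to 20405653) was read at 9763, 11386, 11451 and 10421 normalised counts in DMSO 15, 20, 3 and 5 and at 6726, 7590, 6326 and 6780 in DOX 9, 21, 19 and 12. Every DOX library lay below every DMSO library; over all genes 2.45% had groups that did not overlap, 0.971% with DOX lower. The means were 10755 ± 812 in DMSO and 6856 ± 530 in DOX (SD, n = 4 each). On the log2 scale Rp2h fell by 0.65 (95% interval -0.89 to -0.41; DESeq2 adjusted p = 0.000558). The exact permutation p of the difference was 0.02857, the smallest that 4 against 4 libraries allow.

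The fall of Rp2h kept its direction in each setting tried, with log2 fold changes from -0.78 to -0.56, but not its call. Its edgeR p was 0.00153 before and 0.999 after adjustment. Without DMSO 20 and DOX 19 the log2 fold change was -0.56 (DESeq2 adjusted p = 0.207), and without DOX 19 alone the adjusted p was 0.0622. When sex entered the fit as a covariate, which bears on an X-linked gene, the adjusted p was 0.00242. Rp2h was counted over 5 transcripts that share most of their reads, and in each of them every DOX library lay below every DMSO library, with DOX means at 58.3% to 75.3% of the DMSO means. No exon of another gene overlapped its exons, which GENCODE lists under the symbol Rp2.

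The partners of Rp2h in cargo release did not pass the test. Arl3 was at 4033, 3764, 3000 and 2662 normalised counts in DMSO 15, 20, 3 and 5 and at 2476, 3027, 3591 and 2954 in DOX 9, 21, 19 and 12. These groups overlapped, and the interval of its log2 fold change was -0.59 to 0.27. Arl13b (-0.46 to 0.58), Unc119b (-0.40 to 0.77) and Tulp3, an adaptor that brings receptors into the cilium (-0.46 to 0.87), likewise had intervals that included 0 and excluded a 2-fold change. Among 10 further genes of cargo release, such as Unc119, Pde6d and Arl2, none was called by DESeq2 and 1 had an unadjusted p under 0.05, the tubulin cofactor Tbcc (0.40, DESeq2 adjusted p = 0.931). Thus within this group only Rp2h passed the test, and whether its change differed from that of its partners was not tested.

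**Figure D3:**
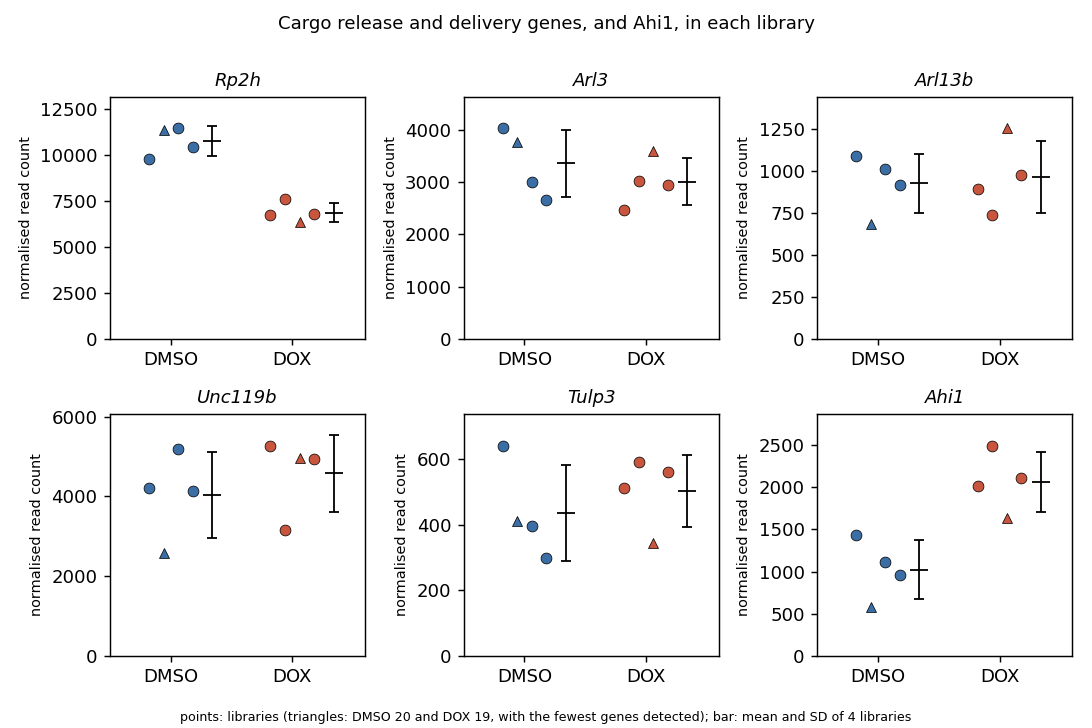
Normalised read counts of the 5 cargo release and delivery genes and of Ahi1 in each library; triangles are DMSO 20 and DOX 19, and bars give the mean and SD of 4 libraries. Rp2h libraries sit between 9763 and 11451 in DMSO and between 6326 and 7590 in DOX, Ahi1 separates in the opposite direction, and the other 4 genes overlap between groups.

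Ahi1 (chromosome 10, 20952232 to 21080429), a transition zone gene mutated in Joubert syndrome, was the other gene whose groups separated with reads in every library. It was at 1431, 584, 1117 and 958 normalised counts in DMSO 15, 20, 3 and 5 and at 2015, 2493, 1631 and 2111 in DOX 9, 21, 19 and 12. Each DOX library was above each DMSO library, as in 1.48% of all genes, and the lowest values of both groups belonged to DMSO 20 and DOX 19. The means were 1022 ± 352 and 2062 ± 354 (SD, n = 4 each). The difference on the log2 scale was 1.01 ± 0.325 (SE; p = 0.00186, adjusted p = 0.283 by DESeq2; exact permutation p = 0.02857). Ahi1 was therefore not called. Of its 2 transcripts, the one with more reads separated the groups (565 to 1123 in DMSO, 1398 to 1934 in DOX) and the other did not (19.2 to 308 in DMSO, 234 to 559 in DOX; exact permutation p = 0.08571). The value without DMSO 20 and DOX 19 was 0.93 with an adjusted p of 0.129 by DESeq2. With low gene detection as a covariate it was 1.06 and passed (DESeq2 adjusted p = 0.0151; 0.248% of all genes were called in that fit), and it also passed without DMSO 15 (1.22, DESeq2 adjusted p = 0.0298).

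The other genes of the Meckel-Gruber and tectonic module encode proteins of the transition zone, or, in the case of Ofd1, of the basal body. None of the 10 genes of the module, Ahi1 included, was called, and their median of 0.16 came to -0.02 without DMSO 20 and DOX 19. Tmem67, which encodes a receptor-like membrane protein, was at 1088, 469, 1945 and 3205 normalised counts in DMSO 15, 20, 3 and 5 and at 1654, 1893, 3310 and 1643 in DOX 9, 21, 19 and 12. The groups overlapped, and the log2 fold change of 0.34 turned to -0.23 without DMSO 20 and DOX 19. Tctn1 was at 0 in DMSO 20, at 919 to 1549 in the other DMSO libraries and at 823 to 2315 in DOX, and its log2 fold change of 0.89 came to 0.36 without DMSO 20 and DOX 19. In the annotation 19.0% of the exon bases of Tctn1 lie opposite exons of the proton channel gene Hvcn1, which was also at 0 in DMSO 20, and the libraries do not mark strand, so reads in the shared stretch cannot be told apart. Cc2d2a was at 640 to 1425 in DMSO, at 672 to 965 in DOX 9, 21 and 12, and at 44.0 in DOX 19 (-0.62 ± 0.756 SE). Its log2 fold change turned to 0.05 without DMSO 20 and DOX 19. Ofd1 was at 64.0 in DMSO 20, at 391 to 882 in the other DMSO libraries and at 555 to 1082 in DOX; its log2 fold change of 0.53 turned to -0.09 without DMSO 20 and DOX 19. The 8 genes with an X-box in the promoter window, 5 of them in this module, had log2 fold changes from -1.03 to 1.01 with a median of 0.08, 4 above 0 and 4 below. The lower end was Bbs1, and without DMSO 20 and DOX 19 the range was -0.36 to 0.93 with a median of 0.10, 5 above 0 and 3 below.

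Of the motors, Kif3a and Kif3b form the kinesin-2 motor, Kif17 is an accessory kinesin, and Dync2h1 drives return transport. All 5 genes listed as motors had fitted changes above 0 with a median of 0.30, and 1, the dynein light chain family member Tctex1d1, was called. Kif3a was at 5084, 6146, 4985 and 7151 normalised counts in DMSO 15, 20, 3 and 5 and at 6728, 6048, 7920 and 8043 in DOX 9, 21, 19 and 12. Its 3 transcripts hold nearly the same counts, so these sums count most reads 3 times, and a single transcript was at 1695, 2049, 1662 and 2385 in DMSO and at 2243, 2016, 2642 and 2681 in DOX. The groups overlapped, and Kif3a did not pass the test (0.30 ± 0.201 SE on the log2 scale, DESeq2 adjusted p = 0.999). Kif3b (0.16 ± 0.280) and Dync2h1 (0.26 ± 0.758) did not pass either, and Dync2h1 lay at -0.33 without DMSO 20 and DOX 19. Kif17 was read at 0 to 72.6 normalised counts in DMSO and 0 to 140 in DOX, with no read in DMSO 20 or DOX 19.

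The call of Tctex1d1 (chromosome 4, 102978703 to 103005594) rested on few reads. Its 3 transcripts hold the same counts, so 1 read is counted 3 times in the summed value. Per transcript there was no read in any DMSO library, and there were 2, 30, 53 and 1 reads in DOX 9, 21, 19 and 12. Set against a floor of 3 reads in each DMSO library, the mean of DOX was at least 7.40-fold higher, and at least 3.57-fold without DOX 19; 2 of the 4 DOX libraries were themselves below that floor. The fitted log2 fold change of 8.51 depends on how zeros are modelled and is no measure of size (DESeq2 adjusted p = 0.0353). edgeR did not test the gene. Counted over 1 transcript only, it received no adjusted p from DESeq2 and was not called. Nor was it called by DESeq2 without DMSO 20 and DOX 19 (adjusted p = 0.118) or with sex as a covariate (adjusted p = 0.0799). Leaving out DMSO 5 or DOX 9 alone also ended the DESeq2 call (adjusted p = 0.117 and 0.0906), and without DMSO 15, DMSO 3, DOX 21 or DOX 19 the gene received no adjusted p. In the annotation 49.8% of its exon bases lie opposite the antisense gene BB031773, which was listed at 2, 27, 0 and 1 reads in DOX 9, 21, 19 and 12 and at 0 in every DMSO library. In DOX 9, 21 and 12 the 2 genes were thus at nearly the same counts, and in such unstranded libraries they cannot be told apart there; BB031773 held none of the 53 reads of DOX 19.

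IFT-B is the larger transport complex, with Ift88, Ift52 and Ift46 in its core and Ift172 and Ift20 among its peripheral subunits. None of its 11 genes was called and none had an unadjusted p under 0.05; 3 were above 0 and 8 below, with a median log2 fold change of -0.17. Ift52, Ift27, Ift20, Ift81 and Ift80 were read well in all 8 libraries, and Ift27 had the shortest interval (-0.57 to 0.16). Ift88, whose partial loss gives the orpk mouse with cystic kidneys, was at 364, 58.9, 863 and 975 normalised counts in DMSO 15, 20, 3 and 5 and at 485, 593, 2.26 and 618 in DOX 9, 21, 19 and 12. Both low values fell in the libraries with few genes detected, and the 95% interval of its change ran from -2.71 to 1.88. Without them the log2 fold change was -0.35 ± 0.422 (SE). Ift172 was at 1153, 0, 992 and 1279 in DMSO 15, 20, 3 and 5 and at 2470, 1251, 2590 and 1468 in DOX 9, 21, 19 and 12. The groups overlapped by 1 pair of libraries, and the log2 fold change of 1.18 ± 1.22 (SE) came to 0.62 without DMSO 20 and DOX 19 (DESeq2 adjusted p = 0.823). Traf3ip1 was at 1718 in DMSO 20, at 237 to 489 in the other DMSO libraries and at 301 to 486 in DOX; its log2 fold change of -0.91 came to -0.06 without DMSO 20 and DOX 19.

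IFT-A, needed for return transport and for the entry of membrane proteins, was likewise without a call in its 6 genes, 2 above 0 and 4 below, with a median of -0.13 that came to 0.16 without DMSO 20 and DOX 19. Ift43 had the smallest spread over 8 libraries (4945 to 6818 normalised counts) and an interval of -0.48 to 0.15. Ttc21b, a nephronophthisis gene, was at 2089 to 2497 in DMSO and 1349 to 2807 in DOX (-0.10 ± 0.273 SE). Ift140 was at 645 to 2228 in DMSO and 1051 to 2354 in DOX; its log2 fold change of 0.29 turned to -0.13 without DMSO 20 and DOX 19, while those of Wdr19, Wdr35 and Ttc21b turned from below 0 to 0.25, 0.21 and 0.12. Without those libraries the intervals of all 6 genes lay within 2-fold.

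The BBSome is a coat-like complex of Bbs1, Bbs2, Bbs4, Bbs5, Bbs7, Bbs9 and Ttc8 that is drawn to membranes by the GTPase Arl6 and put together with the help of the chaperonin-like Bbs10 and Bbs12. None of these 10 genes was called, 5 lay above 0 and 5 below, and the median was -0.02, or -0.23 without DMSO 20 and DOX 19. Bbs1 had the lowest p of the group (log2 fold change -1.03 ± 0.558 SE, DESeq2 adjusted p = 0.986). It was at 510, 1986, 496 and 658 normalised counts in DMSO 15, 20, 3 and 5 and at 442, 506, 253 and 581 in DOX 9, 21, 19 and 12. The value of DMSO 20 stood above the other libraries of its group, and the change was -0.10 without DMSO 20 and DOX 19. Arl6 was at 2237, 2088, 2632 and 2844 in DMSO and 1681, 2528, 1233 and 1819 in DOX in the same order of libraries, groups that overlapped in 1 DOX library (-0.43 ± 0.275 SE, DESeq2 adjusted p = 0.999). Ttc8 was at 2472 to 4777 in DMSO and 1841 to 3089 in DOX (-0.43 ± 0.311), and Bbs4 at 645 to 1282 and 1045 to 1221 (0.24 ± 0.285), both with groups that overlapped.

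The nephronophthisis and inversin modules link the transition zone to a compartment of the proximal cilium: Invs encodes inversin, Nek8 a kinase of the same compartment, Nphp4 a scaffold, and Iqcb1, Cep290 and Rpgrip1l proteins of the transition zone. All 6 genes had fitted changes below 0, from -0.57 to -0.08 with a median of -0.40, and none was called or had an unadjusted p under 0.05. Cep290 was at 724, 896, 867 and 1359 normalised counts in DMSO 15, 20, 3 and 5 and at 439, 724, 682 and 932 in DOX 9, 21, 19 and 12, which overlapped (-0.47 ± 0.336 SE). Iqcb1 was at 869 to 1987 in DMSO and 921 to 1317 in DOX (-0.42 ± 0.315), and Nek8 at 858 to 1890 and 871 to 1472 (-0.37 ± 0.370). Without DMSO 20 and DOX 19 these changes were -0.51 for Iqcb1 and -0.10 for Nek8. Nphp4 was at 1343 in DMSO 20 and at 339 to 447 in the other DMSO libraries, against 217 to 642 in DOX; its log2 fold change of -0.57 came to -0.14 without DMSO 20 and DOX 19. The common sign did not hold without DMSO 20 and DOX 19, where Invs lay at 0.24. Invs was at 2797 to 3373 in DMSO and 3373 to 3818 in DOX 9, 21 and 12, and at 827 in DOX 19. Rpgrip1l was at 0 in DMSO 20 and at 526 to 910 in the other DMSO libraries, and its log2 fold change of -0.26 ± 1.22 (SE) came to -0.49 ± 0.338 without DMSO 20 and DOX 19.

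Much of the spread of these genes lay in DMSO 20 and DOX 19. Taking the 51 genes with a median of at least 100 normalised counts in the other 6 libraries, 11 (21.6%) were more than 4-fold below that median in DMSO 20, against 14.6% of all genes, and 5 of these, Ift172, Bbs7, Bbs10, Rpgrip1l and Tctn1, had no read at all. Ift122 was 86.6-fold, Dync2h1 12.5-fold, Ift88 10.3-fold, Ofd1 9.41-fold, Ift46 7.14-fold and Bbs5 5.48-fold below the median of the other libraries. In the same library Traf3ip1 was 5.58-fold above it, and Wdr35 was at 12884 normalised counts against 3503 to 4864 in the other 6. DMSO 20 held the lowest of 8 values for 23 of the 51 genes (45.1%, against 29.6% of all genes). In DOX 19, 3 genes (5.88%, against 12.7% of all genes) were more than 4-fold below the median: Ift88 with 2 reads, Cc2d2a 18.6-fold below and Invs 4.08-fold below. In none of the other 6 libraries was any of the 51 genes beyond 4-fold of the median of its 5 companions. Ift88 was the only gene so far below in both libraries, while Ift172 and Tctn1, absent from DMSO 20, were at 2590 and 2076 in DOX 19. The part of the number of genes detected in these values was not tested.

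**Figure D4:**
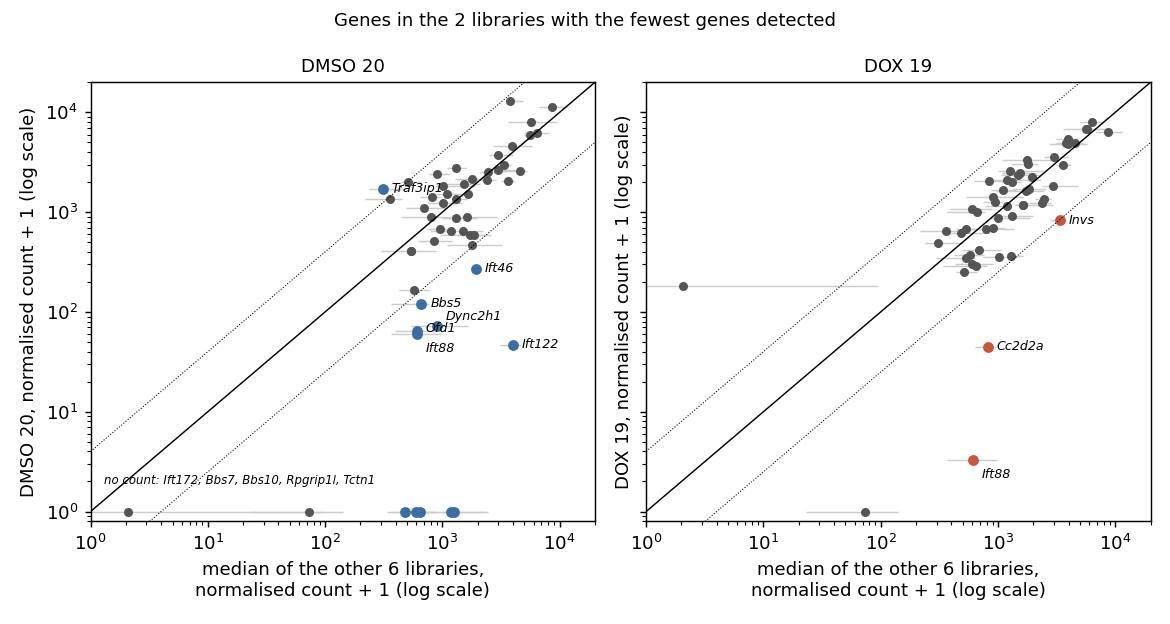
Each gene's normalised count + 1 in DMSO 20 (left) and DOX 19 (right) against the median of the other 6 libraries, both on log axes; grey bars span those 6 libraries, the solid line marks equality and the dotted lines a 4-fold departure. Coloured points, judged where the median was at least 100, number 12 in DMSO 20, 11 of them below the line, and 3 in DOX 19.

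Among the other 6 libraries the ciliary genes varied less. The SD of log2(normalised count + 1) had a median of 0.36 over the 53 genes in these libraries against 0.51 for all genes, and 0.61 against 0.72 when all 8 were used. It was 0.34 and 0.43 over the further subunits and partners of these complexes, described below. A spread below that of all genes is thus not particular to these genes, and the sets were not matched for read count. For 30 of the 53 genes the highest of these 6 libraries was at most 2-fold above the lowest. Ift46, an IFT-B core subunit, varied least (1774 to 2172, 1.22-fold). Apart from Tctex1d1 and Kif17, which had few reads, the most variable were Ahi1 and Tctn1 with an SD of 0.55 each.

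**Figure D5:**
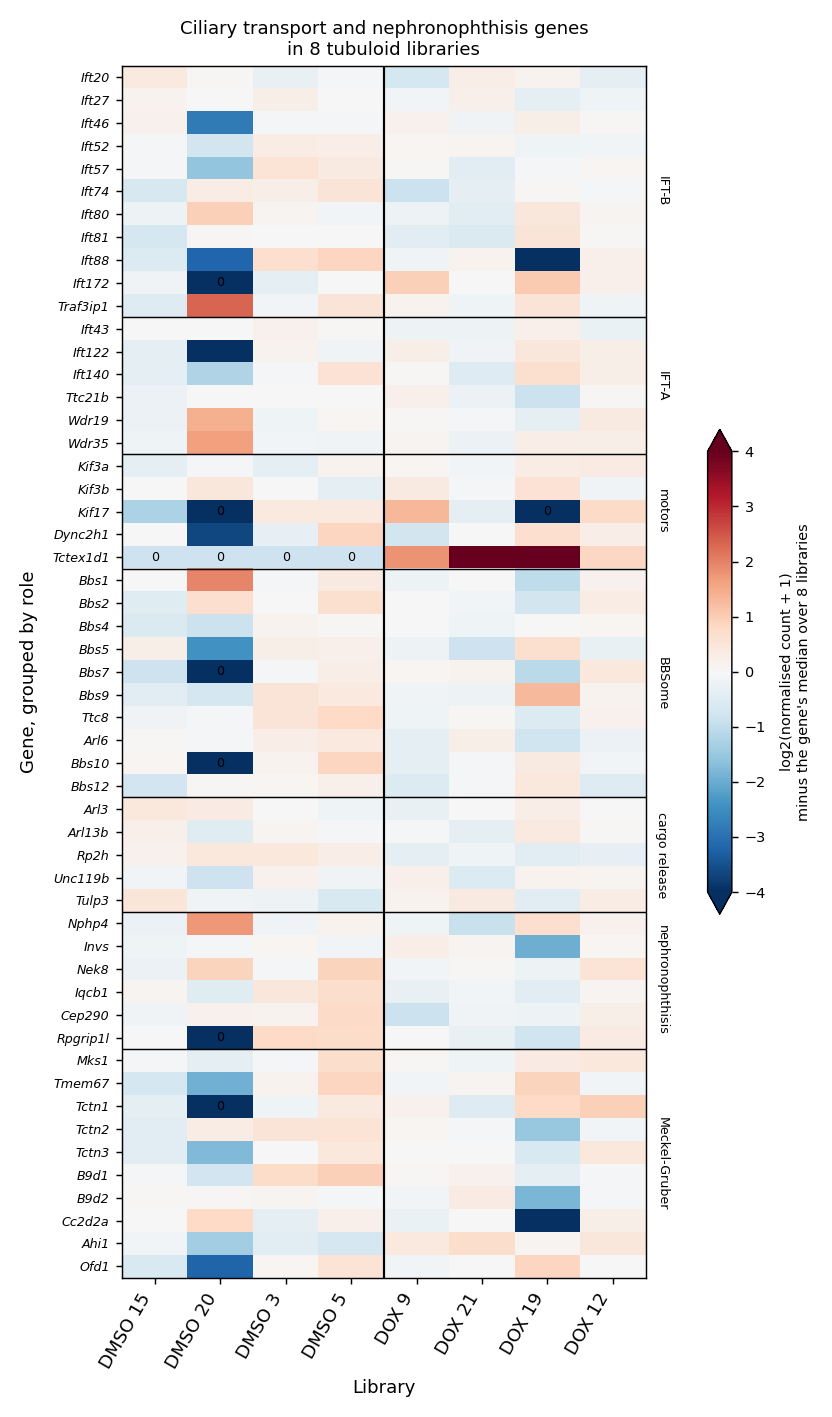
Log2(normalised count + 1) of each gene in each library minus the gene's median over 8 libraries, blue below and red above, with 0 marking no read and the colours ending at 4. The deep blue cells fall almost all in DMSO 20 and DOX 19, and Rp2h and Ahi1 show faint but opposite shifts between the DMSO and DOX sides.

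The other genes of the same pathways gave no call by DESeq2. Of 53 further subunits and partners of these complexes, none was called, 18 lay above 0 and 35 below with a median of -0.08, and 4 had an unadjusted p under 0.05. Lztfl1, which regulates the traffic of the BBSome, was at 2818, 3574, 2695 and 3070 normalised counts in DMSO 15, 20, 3 and 5 and at 1801, 2780, 1131 and 1720 in DOX 9, 21, 19 and 12, an overlap of 1 DOX library (-0.71 ± 0.312 SE, DESeq2 adjusted p = 0.830). The others were the dynein light chain Dynlt3 (-0.53), Tbcc (0.40) and Zfp423, a nuclear protein linked to nephronophthisis (1.49). Of the genes of RFX factors, which bind the X-box, Rfx1 was at 695, 375, 556 and 682 in DMSO 15, 20, 3 and 5 and at 782, 811, 730 and 810 in DOX 9, 21, 19 and 12, groups that did not overlap (0.44 ± 0.256 SE, DESeq2 adjusted p = 0.999). Rfx2 was at 0 in DMSO 20 and at 67.2 to 226 in the other 7 libraries, and Rfx3 was at 46.1 in DMSO 20 and 4.51 in DOX 19 against 596 to 1261 in the other libraries. Glis3, a regulator whose loss gives cystic kidneys, was at 2351, 2006, 1169 and 2358 in DMSO and 823, 1377, 620 and 1129 in DOX (-1.0 ± 0.365 SE on the log2 scale, DESeq2 adjusted p = 0.526), with groups that overlapped. None of 9 genes of cilium disassembly, 9 read-out genes of Hedgehog signalling, which depends on the cilium, or 3 polycystin genes was called or had an unadjusted p under 0.05. Proliferation markers, which bear on ciliation because cells resorb the cilium before division, had a mean log2(normalised count + 1) of 11.92, 11.00, 11.65 and 11.64 in DMSO and 10.40, 10.83, 9.90 and 11.74 in DOX; all 8 lay below 0 with a median log2 fold change of -0.70, none was called by DESeq2, and none had an unadjusted p under 0.05 (3 without DMSO 20 and DOX 19). Of the markers described at the outset, 8 of 8 for kidney epithelium (median -0.59), 9 of 10 for stroma (-0.91), 6 of 8 for principal cells (-1.34) and 14 of the 16 that were fitted for motile, multiciliated cells (-0.74) also lay below 0 without a call. Other lists differed: 4 of 6 markers for endothelium (median 0.57) and 4 of 6 for proximal tubule (0.31) lay above 0. For loop of Henle and distal tubule 4 of 5 (-1.05) and for macrophages 5 of 5 (-1.70) lay below 0. None of these was called. The part of these markers in the values above was not tested.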

How the data were processed

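RNA of 8 tubuloid cultures was analysed, 4 DOX and 4 DMSO, grouped by their titles; library numbers are not shared between groups, so nothing was paired. The authors made poly-A selected SMART-Seq v4 libraries, which do not mark strand, aligned paired-end reads to mm10 with STAR and counted them; versions and counting settings are not given in the sources used here. The deposited counts are unnormalised reads for each RefSeq transcript. The authors also gave FPKM, not used here, and TPM, both scaled for length and depth.

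Counts were summed by symbol over 33068 transcripts, 24063 genes, and compared across all genes by DESeq2 1.42.0 in R 4.3.3 (Wald test, median-of-ratios size factors, Cook's filter, independent filtering at alpha 0.1), the study's tool. edgeR 4.0.16 (quasi-likelihood) and limma 3.58.1 were alternatives. The adjustment was that of Benjamini and Hochberg over all genes. Intervals are the estimate ± 1.96 SE. Single genes were also tested by exact two-sided permutation over 70 assignments. Counts were also simulated with the spread of every gene taken from the fitted trend and with no library of low gene detection. There the share of unchanged genes among the DESeq2 calls exceeded the nominal rate, and among the edgeR calls it did not. That setting differs from these libraries, so nothing is concluded from it about the call of any single gene.

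The genes, roles and lists were chosen with earlier results of these data known. Genes were described one by one if called, among the 10 smallest p, the 3 highest or lowest TPM, the 3 largest SD, or on a list fixed by role, 32 in all; Rfx1, Rfx3, Lztfl1, Wdr35, Ift122, Ift46 and others outside it were singled out after their values were seen. Coordinates are RefSeq's on GRCm38.p6; exon overlaps are GENCODE M21's, for 52 genes (all but Tctn2).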

Additional observations from a re-analysis of the deposited data

Results flagged for a closer look

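In 64 groups of 4 libraries, the values of 32 genes on the log2(normalised count + 1) scale were checked for a library whose gap to its nearest neighbour exceeded Dixon's 95% critical share of the group's range. Chance flags about 1 in 20 groups, and 9 were found; Rpgrip1l and Tctn1 were among the 32 only because of their large SD, so the number found cannot be read against chance. In DMSO 20, Ift172, Rpgrip1l and Tctn1 were each at 0.00, against 9.96 to 10.32, 9.04 to 9.83 and 9.85 to 10.60 in the other DMSO libraries. In DOX 19, Ift88 was at 1.70 against 8.92 to 9.27 in the other DOX libraries, Cc2d2a at 5.49 against 9.40 to 9.92, and Invs at 9.69 against 11.72 to 11.90. In the same library Ift43 was high at 12.74 against 12.27 to 12.35, and so was Ofd1 at 10.08 against 9.12 to 9.26. The remaining one lay outside these libraries: Unc119b was at 11.62 in DOX 21 against 12.27 to 12.37. So 8 of the 9 fell in the libraries with the fewest genes detected.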

How the results depend on the processing

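DESeq2 called 25 of all genes, 14 higher and 11 lower, and 2 of the 53. edgeR and limma-voom called 0 of all genes and 0 of the 53. All-gene calls were 16 (9 higher, 7 lower) with at least 10 counts in every library, 48 (25 higher, 23 lower) without the Cook's filter, 43 (22, 21) with sex as a covariate, 41 (25 lower) with low gene detection as a covariate and 51 (30 lower) with 3 against 3 libraries. Leaving out 1 library gave 14 to 75 calls, 6 to 42 higher and 6 to 33 lower, the most without DMSO 15; the fewest in all came without DMSO 3 and the fewest higher without DMSO 5. Of the 53, 1 gene (0 higher) was called with either count filter, one transcript per gene or the sex covariate, 2 were called as higher with low gene detection as a covariate (Tctex1d1 and Ahi1), and 0 with 3 against 3 libraries. Leaving out 1 library gave 0 to 2 calls among the 53, 0 to 1 higher and 0 to 1 lower, with 0 lower only without DOX 19; in part of these DESeq2 gave Tctex1d1 no adjusted p. No paired analysis was possible because the groups share no library number.

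With 3 against 3 libraries the log2 fold change of 17 of the 53 genes changed sign: Ift140 (-0.13), Ttc21b (0.12), Dync2h1 (-0.33), Arl13b (-0.20), Unc119b (-0.0025), Invs (0.24), Tmem67 (-0.23), Cc2d2a (0.05) and Ofd1 (-0.09), and, outside the 32 genes described one by one, Ift81 (-0.08), Wdr19 (0.25), Wdr35 (0.21), Bbs5 (-0.62), Bbs9 (-0.25), Bbs10 (-0.55), Mks1 (-0.09) and B9d2 (0.05). Rpgrip1l turned with limma-voom (1.63) and with low gene detection as a covariate (0.48). Among the 32, leaving out 1 library turned Ift88 (-0.79 to 0.0075), Traf3ip1 (-1.20 to 0.08), Ttc21b (-0.24 to 0.08), Dync2h1 (-0.12 to 0.84), Arl13b (-0.08 to 0.17), Nphp4 (-0.85 to 0.12), Invs (-0.25 to 0.24) and Rpgrip1l (-0.68 to 0.05). None of these was called in any setting. Rp2h stayed between -0.78 and -0.56, Ahi1 between 0.82 and 1.22, and the cause of the changed calls was not tested. With 4 libraries a group, 1 of them poorly detected in each, the 95% interval excluded a 2-fold change for only 20 of the 53 genes.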
